A study of Mus musculus with 2 samples.

Results

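The 9 genes described here are the 3 Runx transcription factors, their DNA-binding partner and 5 genes of the osteoblast lineage. They were taken by symbol, as *Runx1*, *Runx2*, *Runx3*, *Cbfb*, *Sp7*, *Alpl*, *Spp1*, *Pth1r* and *Ibsp*, from 22096 gene symbols in the deposited tables, and all 9 were found, as 23 RefSeq transcripts. RNA was sequenced from forelimb cells of mouse embryos at embryonic stage E13.5, on a mixed strain background, separated in a flow sorter by green fluorescence. The ScxGFP transgene puts GFP under control of regulatory sequence of *Scx* (scleraxis), a transcription factor gene of cells that go on to form tendon and ligament. One group was ScxGFP positive cells and the other ScxGFP negative cells of the same stage and tissue; each was 1 library from 6 pooled forelimbs (3 pairs). The negative population is not 1 cell type: it holds whatever limb cells were not fluorescent, blood, skin, vessel and nerve cells among them.

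Runx proteins bind DNA through a shared Runt domain, and the non-DNA-binding subunit encoded by *Cbfb* stabilises that contact. *Runx2* directs mesenchymal cells toward the osteoblast lineage and also drives chondrocyte hypertrophy, and *Sp7* (osterix) acts downstream of it. *Runx1* is best known from haematopoiesis and *Runx3* from lymphocytes, sensory neurons and cartilage, and each gene has a distal and a proximal promoter. *Alpl*, *Spp1* and *Ibsp* encode products of cells that form or mineralise bone matrix, and *Pth1r* encodes the receptor for parathyroid hormone and its related peptide.

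Values are the deposited FPKM (fragments scaled to transcript length and to all mapped fragments), added up over all transcripts with a gene's symbol. Log2 ratios are positive over negative after adding 1 FPKM to each, which understates differences of low genes. With 1 library per population there is no replicate check and no test: each difference describes these 2 libraries, and "lower" or "higher" below means at least 2-fold on that scale. A gene counts as measured at 1 FPKM or more in a library. In a bulk library, fewer cells that express a gene and less of its RNA per cell cannot be told apart. *Scx* itself had 134 FPKM in the library of fluorescent cells and 1.69 in the other, the direction of the sort. Aligned sequence on the listed transcripts came to 0.687 gigabases (positive library) and 0.875 gigabases (negative library).

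The Runx genes and *Sp7* were lower in ScxGFP positive cells, *Cbfb* and *Pth1r* were within 2-fold, and *Alpl*, *Spp1* and *Ibsp* stayed under 1 FPKM in both populations. Of 6 measured members 4 were lower and 0 higher, where 9.98% of 12096 measured genes were lower and 4.03% higher. The median log2 ratio of the 6 measured members was −1.19, and that of all measured genes −0.27. The other 3 members did not count as measured.

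**Figure D1:**
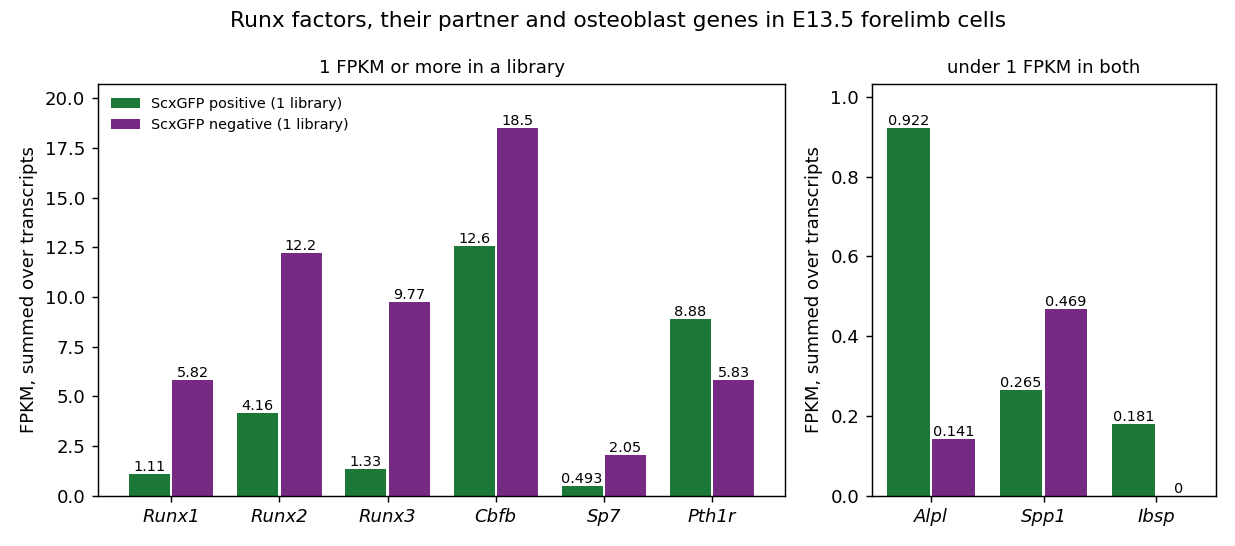
Deposited FPKM (vertical axes, linear, from 0) of the 9 genes in the ScxGFP positive (green) and ScxGFP negative (purple) library, 1 bar per library with no error bar because each population has 1 library. *Runx1*, *Runx2*, *Runx3* and *Sp7* have the taller bar in the negative library, *Pth1r* in the positive one, and the right panel has its own scale because its 3 genes lie under 1 FPKM.

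*Runx2*, the osteoblast regulator, was the most abundant Runx gene in both populations. Its level was 4.16 FPKM in the positive and 12.2 FPKM in the negative library, with a log2 ratio of −1.35, so positive cells had 34.1% of the negative level. *Runx3* stood at 1.33 FPKM against 9.77, a log2 ratio of −2.21 and the lowest among the members. *Runx1* stood at 1.11 FPKM against 5.82, a log2 ratio of −1.69. All 3 genes were thus lower in the tendon reporter fraction, though with a pseudocount of 5 *Runx1* (−0.82) and *Runx2* (−0.91) fell short of 2-fold, as did *Runx2* (−0.93) by its highest transcript alone. In FPKM without a pseudocount *Runx1* kept 19.2% and *Runx3* 13.6% of the negative level, so *Runx2* lay nearest to parity and *Runx3* farthest from it. In the positive library *Runx2* lay above 53.8% of measured genes, while *Runx1* lay above 13.3% and *Runx3* above 17.3%.

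The make-up of the family differed between the populations in a way that no scaling of a whole library can alter. Of the summed Runx FPKM, *Runx2* made up 63.0% in positive cells against 43.9% outside them. *Runx3* made up 20.1% and 35.2%, and *Runx1* 16.9% and 20.9%. The order *Runx2*, *Runx3*, *Runx1* was the same in both, and the gap between *Runx3* and *Runx1* in positive cells, 0.216 FPKM, has no error to be judged against.

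The distal promoters of the 3 Runx genes carry a common stretch, shown here because the deposited tables list distal and proximal transcripts of *Runx1* and *Runx2* apart. RefSeq promoter windows of GRCm38.p6 (250 bases before to 50 after a start site) were at hand for 8 of the 9 genes, as 14 windows. They were searched on both strands for TGTGGT, the core of the Runx binding motif, whose reverse complement is ACCACA. Capitals mark the matches, all on the strand opposite to the gene, and every sequence is 30 bases on the gene's own strand.
Runx1 distal, chr16:92826025-92826054, minus strand: cataaacaACCACAgaACCACAagttgggt
Runx2 distal, chr17:44814583-44814612, minus strand: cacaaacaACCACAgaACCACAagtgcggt
Runx3 distal, chr4:135120503-135120532, plus strand: gtccctcaACCACAgaACCACAaggccagg
Runx2 distal, upstream match, chr17:44814690-44814719, minus strand: gtgaggtcacaaACCACAtgattctgtctc
Spp1, chr5:104434971-104435000, plus strand: tttttttttttaACCACAaaaccagaggag

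The longest stretch common to the 3 Runx windows was 18 bases, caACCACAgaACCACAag, with a pair of matches in tandem. It began 27 bases into the *Runx1* transcript and 22 bases into that of *Runx2* as the table places the starts, and at −136 from the start of *Runx3*. The *Runx2* start of the table lies 170 bases from the 5′ end of the RefSeq gene. Among 32544 promoter windows, 4 held the stretch: these 3 and that of *Gm16225*, whose window overlaps the *Runx3* window on the other strand. TGTGGT on either strand was in 4 of the 14 windows of members, those of *Runx1* (distal), *Runx2*, *Runx3* (distal) and *Spp1*, and in 16.7% of all windows. The windows of *Alpl*, *Ibsp*, *Cbfb*, *Pth1r*, the proximal starts of *Runx1* and *Runx3* and the downstream start of *Spp1* did not contain these letters. No window at the proximal start of *Runx2* was at hand, so that start was not searched. A match is a description of sequence and does not show binding.

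Transcripts of *Runx2* from its distal and proximal start sites did not differ between the populations to the same degree. In mm9 the gene spans chromosome 17, 44740950 to 44951746, and lies on the minus strand in the RefSeq table, so its starts are at 44951746 (distal) and 44873597 (proximal), 78.1 kilobases apart. Distal transcripts stood at 3.53 FPKM in positive and 6.99 in negative cells. The proximal transcript NM_001145920 stood at 0.633 against 5.20 FPKM, a log2 ratio of −1.93. Distal transcripts therefore made up 84.8% of *Runx2* FPKM in the positive library against 57.3% in the negative one, and positive cells kept 12.2% of the negative level of the proximal transcript against 50.5% for the distal ones.

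The 2 distal *Runx2* transcripts also differed from each other. NM_001146038 stood at 2.26 FPKM in positive and 1.93 in negative cells, whereas NM_009820 stood at 1.27 against 5.06. Thus 1 of the 3 *Runx2* transcripts was as abundant in the tendon fraction as outside it, on the deposited estimates. The transcripts share most of their exons, so these values rest on how the estimate divided shared fragments, and no interval on that division was used here. *Supt3h*, a transcription cofactor gene annotated across the distal part of *Runx2* (chromosome 17, 44914120 to 45256233), stood at 1.63 against 2.05 FPKM. The library chemistry does not mark strand, so reads in the shared interval could not be assigned by strand.

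*Runx1* signal came mainly from the proximal start in both populations. The gene spans mm9 chromosome 16, 92601711 to 92826311, with starts at 92697573 (proximal) and 92826311 (distal), 128.7 kilobases apart. Proximal transcripts stood at 1.11 FPKM against 5.17. Distal transcripts stood at 0.649 FPKM in negative cells, 11.1% of the gene, and at an estimate of almost nothing in positive cells (4.28e-06 FPKM). A distal share was thus estimated only in the negative library, on about 8843 aligned bases (coverage times transcript length). All *Runx1* transcripts together had about 17869 aligned bases in the positive library. The limit on dividing shared fragments given for *Runx2* applies here too. The distal promoter of *Runx1* is known for its use in definitive blood cells. For *Runx3* the tables list 1 transcript, NM_019732 (mm9 chromosome 4, 134676560 to 134733905), which starts at the distal promoter, so its promoters could not be compared.

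**Figure D2:**
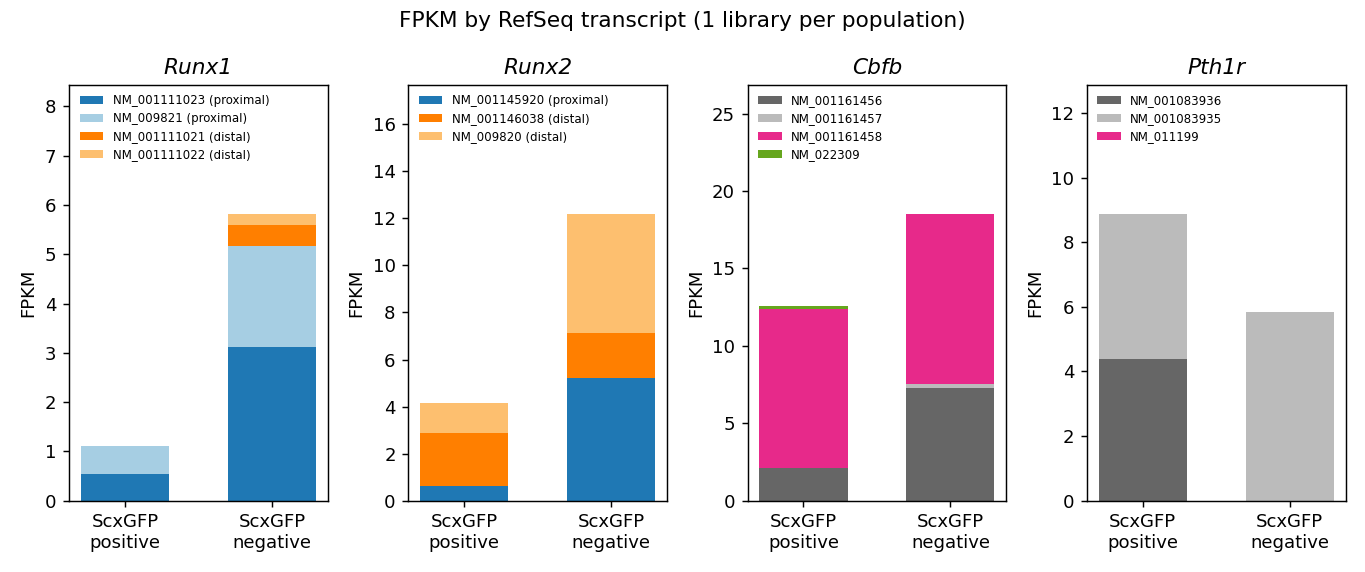
FPKM of each RefSeq transcript (stacked, linear axis from 0, own scale per gene) of *Runx1*, *Runx2*, *Cbfb* and *Pth1r* in the ScxGFP positive and ScxGFP negative library; for the Runx genes blue marks the proximal and orange the distal start. Orange fills 84.8% of the positive and 57.3% of the negative *Runx2* bar, and 11.1% of the negative *Runx1* bar.

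*Cbfb*, the common partner of the Runx proteins, was within 2-fold, at 12.6 against 18.5 FPKM (log2 ratio −0.53; mm9 chromosome 8, 107694574 to 107741888). It lay above 85.4% of measured genes among positive cells and 88.0% among negative cells. Its partner genes summed to 6.61 FPKM in positive and 27.8 in negative cells. *Cbfb* FPKM was therefore 1.90 times the Runx sum in positive cells and 0.667 times in negative cells, so the order of partner and Runx sum was opposite in the 2 libraries. Among its transcripts NM_001161458 stood at 10.23 against 10.95 FPKM and NM_001161456 at 2.13 against 7.28, so most of the estimated gap lay in the latter. The *Cbfb* transcripts have the same mm9 start and end, so the limit on dividing shared fragments given for *Runx2* applies.

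*Sp7*, the osteoblast factor downstream of *Runx2*, was low in both populations, at 0.493 FPKM in positive and 2.05 in negative cells (log2 ratio −1.03; NM_130458, mm9 chromosome 15, 102187608 to 102196702). Its ratio lay just past 2-fold, and with the median ratio of all genes set to 1 it was −0.86, short of 2-fold. The positive value rests on about 2571 aligned bases. *Runx2* exceeded *Sp7* 8.44 times in FPKM in positive cells and 5.96 times in negative cells.

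*Pth1r* had its higher value in the tendon fraction. Its levels were 8.88 FPKM (positive) and 5.83 FPKM (negative), with a log2 ratio of 0.53, or 0.80 above the median of all genes, and short of 2-fold (mm9 chromosome 9, 110624589 to 110649649). Rescaled to equal sums (TPM, FPKM as a share of the library's sum), its ratio was 1.02, past 2-fold. In that setting the added 1 also weighs less. The middle start, transcript NM_001083935, stood at 4.48 against 5.83 FPKM, so the excess in positive cells lay in NM_001083936, at 4.39 against 0.000696. Those transcripts start 1.08 kilobases apart by their mm9 positions and the same limit on dividing shared fragments applies.

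*Alpl*, which encodes tissue-nonspecific alkaline phosphatase, an enzyme of mineralisation, stood at 0.922 FPKM in positive and 0.141 in negative cells (mm9 chromosome 4, 137297647 to 137352292). Without a pseudocount that is a 6.53-fold difference, and with 1 FPKM added the log2 ratio was 0.75; the negative value rests on about 848 aligned bases. *Spp1* (osteopontin), made by osteoblasts, hypertrophic chondrocytes and macrophages, stood at 0.265 against 0.469 FPKM. *Ibsp* (bone sialoprotein) stood at 0.181 FPKM in positive cells, on about 807 aligned bases, and is listed at 0 in negative cells. *Alpl* and *Ibsp* thus had their larger value in positive cells and *Spp1*, like the Runx genes, in negative cells, but levels this low allow little more than that order to be stated.

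*Ibsp* and *Spp1* lie in a 270-kilobase cluster of acidic phosphoprotein genes on mm9 chromosome 5, with *Dspp*, *Dmp1* and *Mepe* between or beside them. *Dmp1* stood at 0.0879 FPKM in positive and 0.00845 in negative cells, *Dspp* at 0.00525 against a listed 0, and *Mepe* is listed at 0 in both. None of the 5 genes reached 1 FPKM in either library. Genes on either flank did: *Sparcl1*, a matricellular protein gene, stood at 3.39 against 9.35 FPKM, and *Pkd2*, a cation channel gene, at 13.0 against 6.14. The cluster and its flanks were described after their values had been seen.

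**Figure D3:**
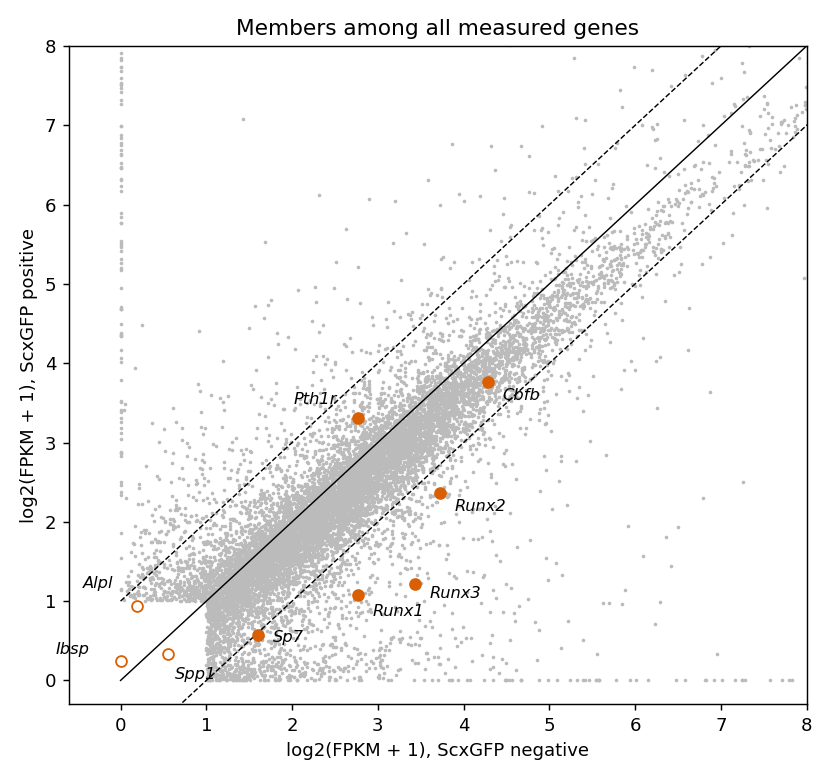
Each grey point is 1 of 12096 measured genes, at log2(FPKM + 1) in the ScxGFP negative (horizontal) and ScxGFP positive (vertical) library; 121 genes beyond 8 on either axis are not drawn. Orange points are the 9 members, open where under 1 FPKM in both; the solid line marks equality and the dashed lines 2-fold, with *Runx1*, *Runx2*, *Runx3* and *Sp7* below the lower dashed line.

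Most osteoblast transcription factor genes were lower in positive cells. Of 12 measured genes 7 were lower, 1 was higher and 4 were within 2-fold, where 9.98% of all genes were lower and 4.03% higher; they had a median log2 ratio of −1.20 (5 lower with the median ratio of all genes set to 1). The homeobox genes *Msx2* (2.003 against 19.8 FPKM), *Dlx5* (4.71 against 33.5) and *Dlx3* (0.309 against 4.94) were the lowest, and all of these are expressed in limb ectoderm as well. *Creb3l1*, a stress-sensor factor of collagen-secreting cells, was the 1 gene higher, at 16.0 against 3.86 FPKM.

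Genes for Runx cofactors and antagonists differed little. Of 25 measured genes 1 was higher, 0 were lower and 24 were neither, with a median log2 ratio of −0.068 that was 0.24 with the median ratio of all genes set to 1. With TPM 4 were higher and 0 lower. The 1 higher gene was *Twist2*, a basic helix-loop-helix factor that inhibits Runx2 activity, at 15.8 against 2.30 FPKM; its relative *Twist1* stood at 32.3 against 32.2. *Runx1t1* and *Cbfa2t3*, co-repressors of the ETO family, stood at 11.9 against 6.35 and 1.17 against 3.24 FPKM, and *Zfp521*, a zinc finger antagonist of Runx2, at 17.5 against 11.2. With TPM taken without haemoglobin genes 1 was lower. Against 9.98% lower and 4.03% higher over all genes, counts of 0 and 1 among 25 lie near the background.

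Osteoblast matrix and mineral genes went both ways. Of 14 measured genes 4 were higher (4.03% of all genes), 2 were lower (9.98% of all genes) and 8 were within 2-fold; they had a median log2 ratio of 0.34. The type I collagen genes *Col1a1* and *Col1a2* stood at 268 against 44.6 and 285 against 60.3 FPKM; tendon cells make this collagen too. *Phex*, an endopeptidase gene of phosphate balance, stood at 2.86 against 0.128 FPKM. The 2 lower genes were *Enpp1*, at 1.92 against 6.46 FPKM, and *Spns2*, a sphingosine phosphate transporter gene, at 0.140 against 2.90. The osteocalcin gene *Bglap* stood at 0.187 against 0.902 FPKM, and its close copy *Bglap2* is listed at 0 in both, so the division of reads between them is uncertain. These genes were named after their values were seen. *Bglap*, like *Ibsp*, *Spp1*, *Dmp1* and *Mepe*, was thus under 1 FPKM in both populations, so these defining products of mineralising osteoblasts were near 0 in either library.

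Around *Pth1r*, no gene of the parathyroid hormone related peptide and hedgehog loop passed 2-fold with 1 FPKM added. All 9 measured genes were neither lower nor higher on that scale (all genes, 9.98% lower and 4.03% higher). Their median log2 ratio was −0.037 and turned to 0.25 with the median ratio of all genes set to 1; *Gli2* was then higher, and with TPM so were *Pthlh* and *Hhip*. The ligand gene *Pthlh* stood at 1.03 against 0.395 FPKM, the hedgehog effector gene *Gli2* at 9.97 against 4.81, the hedgehog-binding antagonist gene *Hhip* at 1.32 against 0.498, and *Ramp2*, encoding a receptor activity-modifying protein, at 2.55 against 5.59. *Ihh*, the ligand of prehypertrophic cartilage, stood at 0.135 against 0.443 FPKM. Of 7 measured genes of growth cartilage 0 were lower and 0 higher, against the same shares of all genes, although *Col2a1* and *Matn1* were higher with the median ratio set to 1. The hypertrophic marker gene *Col10a1* stood at 0.610 against 0.604 FPKM, and the hypertrophic collagenase gene *Mmp13* at a listed 0 against 0.0461.

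Most measured blood cell markers were also lower in positive cells. The counts below stand beside 9.98% lower and 4.03% higher over all 12096 measured genes. All 15 measured leukocyte and macrophage genes were lower, with a median log2 ratio of −3.20; their summed level was 15.6 FPKM in positive and 489 in negative cells, and 0 of them were listed at 0. *Fcer1g* and *Tyrobp*, signalling adaptor genes of myeloid cells, had the highest levels in that list, at 2.82 against 89.2 and 1.73 against 84.6 FPKM. All 7 measured mast cell genes were lower (summed 6.01 against 471 FPKM; *Mcpt4* and *Ms4a2* listed at 0 in positive cells), as were both measured platelet genes (2.25 against 26.8; *Gp9* and *Treml1* at 0 there) and all 3 measured T and natural killer cell genes (0.226 against 11.7; *Cd3e*, *Nkg7*, *Cd7* and *Gzma* at 0 there). Of 8 erythroid genes 7 were lower (summed 156 against 6418 FPKM; *Gata1* at 0 there). The part of blood cells in the lower *Runx1* and *Runx3* values was not tested.

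Most skin, vessel and nerve markers were lower as well, where 9.98% of all measured genes were lower. All 10 epidermal genes were lower (summed 14.8 against 377 FPKM, none at 0), with a median log2 ratio of −3.60. Of 10 endothelial genes 8 were lower (8.85 against 65.8 FPKM; *Cldn5* at 0 in positive cells), and of 8 Schwann cell and nerve genes 6 were lower (16.4 against 53.2 FPKM, none at 0). Of 3 measured osteoclast genes 2 were lower and 1 higher (summed 5.97 against 7.28 FPKM; *Tm7sf4* and *Atp6v0d2* at 0 in positive and *Oscar* at 0 in negative cells). Tendon and muscle genes stood on the other side, with 6 of 8 and 7 of 8 higher, where 4.03% of all measured genes were higher. The part of these cells in the Runx, *Sp7* and homeobox values was not tested.

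**Figure D4:**
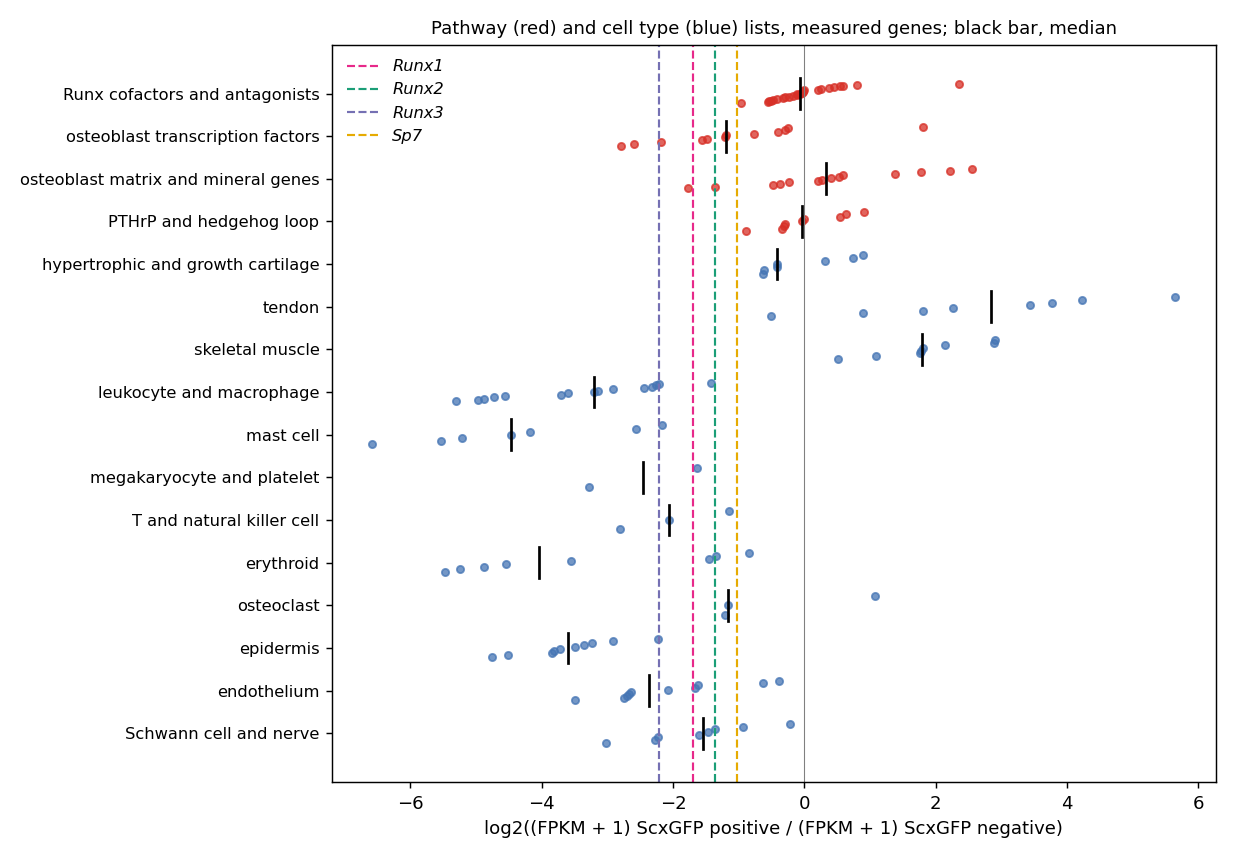
Log2 ratio of FPKM + 1, ScxGFP positive over ScxGFP negative (horizontal axis), of each measured gene in the pathway lists (red) and cell type lists (blue), with the median of each list as a black bar; dashed lines mark *Runx1*, *Runx2*, *Runx3* and *Sp7*. The 4 dashed lines lie below 0; the *Runx3* line at −2.21 and the *Runx1* line at −1.69 lie right of the leukocyte (−3.20) and epidermal (−3.60) medians and left of the Schwann cell and nerve median (−1.54).

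By the distance between points of log2(FPKM + 1) in the 2 libraries, the listed genes most like each measured member were found among 186 candidates. Nearest to *Runx2* was *Mef2c*, a factor gene of muscle, vessel and cartilage, at 4.30 against 14.5 FPKM (distance 0.24), then *Cd68* (0.70). Nearest to *Runx1* were *Erbb3* (0.27) and *Fosl2* (0.36), and to *Runx3* *Epcam* (0.20) and *Sox10* (0.53). *Cbfb* lay nearest to *Sox9*, at 13.9 against 18.9 FPKM (0.14), and *Aes* (0.20); *Sp7* to *Epor* (0.18) and *Tnfrsf11a* (0.27); and *Pth1r* to *Gli2* (0.28) and the tendon factor gene *Mkx*, at 8.97 against 4.36 FPKM (0.35). With 2 libraries such likeness means only a similar level in each.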

How the data were processed

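The submitters' processing notes name mouse build mm9, TopHat 1.4.1 and Bowtie 0.12.7; for the abundance program no version was found in those notes. Per the labels, cDNA came from NuGEN's Ovation RNA-Seq v2 chemistry, which does not mark strand. The authors' deposited FPKM, per the file headers, is given per RefSeq transcript (28107 rows a file) with a length, a status and a coverage signal, the depth of aligned bases. Coverage divided by FPKM was 2.28 and 2.39 in the positive and negative library. Depth in fragments is unknown.

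FPKM was summed per symbol (pandas 2.3.3), and 6 symbols for which a file marks a failed estimate were left out, none of them a member. File positions count from 0, so 1 was added to each start. Differences are log2 ratios with a pseudocount of 1, among genes at 1 FPKM or more in a library, called at 2-fold; the calling code was checked on simulated data, which says nothing of the error of a call. Members and lists were chosen with earlier results of these data known. Text names all members, up to 4 genes of each pathway list with the largest absolute ratio and the 2 most abundant genes of cell type lists, of which the text gives those that bear on the members, with other genes where stated. Alternatives were other pseudocounts, scalings, filters, a length correction and the highest transcript per gene. Listed symbols with no row included *Spi1*, *Kmt2a*, *Dcstamp* and *Ocstamp*; 1 listed gene is not reported here, and *Kmt2a* was read as *Mll1*. Promoter sequences are RefSeq's on GRCm38.p6; their positions were not mixed with those of mm9.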

Additional observations from a re-analysis of the deposited data

How the results depend on the processing

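No paired analysis was possible because each population has 1 library, and for the same reason none could be left out. *Runx1*, *Runx2*, *Runx3*, *Cbfb*, *Sp7* and *Spp1* kept their negative sign, and *Alpl* and *Ibsp* their positive sign, under all 9 alternatives run on single genes. Part of this was fixed in advance, because a change of pseudocount cannot turn a sign. The highest transcript changes nothing for *Runx3*, *Sp7*, *Alpl* and *Ibsp*, which have 1 transcript each. No scaling could turn *Ibsp*, which is listed at 0 in negative cells. *Runx3* also stayed past 2-fold in all 9, from −2.79 with a pseudocount of 0.1 to −1.22 with 5. With a pseudocount of 5, 1 member was lower, and *Runx1*, *Runx2* and *Sp7* were at −0.82, −0.91 and −0.36; over all genes 394 were then lower and 222 higher, against 1207 and 488 with a pseudocount of 1. *Sp7* was at −0.86 with the median ratio set to 1 and −0.88 with equal upper quartiles. With the highest transcript per gene *Runx2* was at −0.93 and *Pth1r* at −0.32, a change of sign. *Pth1r* was at 1.02 with TPM, so that 1 of the 6 measured members was higher. *Alpl* (2.03) and *Ibsp* (1.08) were also past 2-fold with TPM, and so they were with TPM without haemoglobin genes. That count leaves *Alpl* and *Ibsp* out because neither reached 1 FPKM as deposited. Both TPM settings change the scale and also make the added 1 weigh less. TPM gave 1133 genes higher over all genes and TPM without haemoglobin genes 1032; the higher share of genes past 2-fold was 28.8% as deposited, 43.8% with the median ratio set to 1, 41.7% with equal upper quartiles, 49.3% with TPM and 45.5% with TPM without haemoglobin genes. The median log2 ratio of all genes was −0.27 as deposited; median-ratio scaling made it −0.00060 and TPM 0.10. Under a minimum of 5 FPKM, which leaves 6215 genes, 658 were lower and 323 higher. *Alpl* ranged from 0.20 to 2.08 and *Ibsp* from 0.051 to 1.49, both with a pseudocount of 5 and of 0.1. The cause of changes between scalings was not tested.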

Other observations

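Some other bone and bone-resorption genes reached 1 FPKM in a library, unlike *Alpl*, *Spp1* and *Ibsp*. *Ifitm5*, whose product is known as a membrane protein of mineralising osteoblasts, stood at 2.27 FPKM in ScxGFP positive and 1.84 in negative cells, above 1 FPKM in both while *Ibsp* and *Spp1* were not. *Ctsk*, the gene of the osteoclast protease cathepsin K, which fibroblasts also express, was higher in positive cells, at 4.52 against 1.60 FPKM, whereas the osteoclast genes *Acp5* (0.863 against 3.30) and *Tnfrsf11a* (0.264 against 1.81) were lower. *Enpp1*, a pyrophosphate-generating enzyme gene, was lower, at 1.92 against 6.46 FPKM, while *Alpl*, whose product breaks pyrophosphate down, had its larger value in positive cells but under 1 FPKM. These genes were picked after their values were seen, and with 1 library per population none of the differences has a replicate check.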
